A study of Mus musculus with 12 samples.

Results

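The RNAs examined here come from 7 genes that themselves encode RNA-binding proteins: Elavl1, Elavl2, Elavl3 and Elavl4 of the Elav (Hu) family, and Celf1, Celf2 and Celf4 of the Celf family. They were mapped in N2A, an established mouse neuroblastoma line, by iCLIP, in which ultraviolet light (150 mJ/cm2) links a protein to the RNA it touches and the linked RNA is isolated with an antibody and sequenced. Each of 3 proteins (Rbm38, and Puf60 with or without its exon 5) was made as a Flag-tagged copy from a transgene placed by the Flp-in system and switched on with 1 µg/ml doxycycline. Every protein had 3 CLIP libraries and 1 size-matched input (lysate RNA of that size range, not immunoprecipitated), or 12 samples in all. Induction lasted 48 h in the CLIP libraries of Puf60 with exon 5 and 24 h in the other CLIP libraries and in the 3 inputs, so isoform and induction time cannot be told apart. The cells kept their own Puf60 and Rbm38 genes, and the anti-Flag antibody was directed at the transgene's product.

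The authors deposited 1 table of clusters, short stretches of genome covered by reads, per protein. A cluster was given to one of the 7 genes when its centre lay inside the gene body (GRCm38, also called mm10) on that gene's strand. This gave 341 clusters of the 124941 in the 3 tables: 96 for Puf60 with exon 5, 118 for Puf60 without exon 5 and 127 for Rbm38. All 7 genes had at least 1 cluster in each table.

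Elav proteins bind U-rich and AU-rich stretches of RNA, where they stabilise messages and steer splicing. Elavl1 is made in nearly all cells, whereas Elavl2, Elavl3 and Elavl4 are mainly neuronal. Celf proteins bind GU-rich RNA and act in splicing and in message decay. Of the tagged proteins, Puf60 is a splicing factor that recognises pyrimidine tracts ahead of 3′ splice sites. Rbm38, whose gene is a target of p53, binds GU-rich and U-rich RNA and acts on message stability and splicing.

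The tables hold the authors' comparison of CLIP with input and no value per library. The spread between libraries and the depth are therefore unknown, no test across replicates could be made, and the labels do not state that the replicates were separate cultures. The log2 fold was read as CLIP over input, and a cluster is called enriched below where the authors' adjusted p was under 0.05 with a log2 fold above 0. The tables also hold no expression values, so the N2A label could not be checked against marker genes. In these genes 89 of the 96, 93 of the 118 and 96 of the 127 clusters carry exactly the same log2 fold and p-value as some other cluster of their table. Over the whole tables these numbered 26414 of 36227, 29363 of 39454 and 36195 of 49260. Values of separate clusters therefore need not be separate measurements in full, which was not tested. The reference gives gene bodies without exons, and each position below is a place in the gene body that may be exon, intron or untranslated region. Intervals are 95% Wilson intervals and cover counting error only.

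Sequence could be read at 2 of the 341 clusters, both in Elavl4, since these alone overlapped a window of the RefSeq promoter table (GRCm38.p6), which holds 18 windows for 6 of the 7 genes. They are shown because the first lies among the enriched clusters that the table of Puf60 with exon 5 holds and the other Puf60 table lacks, and the second is a Rbm38 cluster far from the gene's 3′ end. The first gives the 24 bases of a 100 nt cluster that the window covers, and the second the middle 30 bases of a 50 nt cluster. Both run 5′ to 3′ on the minus strand, and every capital is a base of the cluster.
Elavl4, Puf60 with exon 5, chr4:110287462-110287485: ATCCTAGAATCGGGGGTTTCAGCT
Elavl4, Rbm38, chr4:110286846-110286875: TGGGTTTTGTGGGGCATTGGGTGGATGCAG
The first stretch begins 26 nt after an annotated start site at 110287511 and belongs to the cluster at 110287386 to 110287485, whose log2 fold in the authors' deposited table of Puf60 with exon 5 was 2.15 (adjusted p 1.19e-18). Its bases included 7 T and 7 G of 24. The second lies upstream of another annotated start site at 110286834. Its cluster, at 110286836 to 110286885, stood at 1.81 on the log2 scale with an adjusted p of 1 in the authors' deposited Rbm38 table, and was not called enriched. Of the 50 bases of that cluster, 21 were G and 15 were T (42% and 30%). The 250 bases before its own start site at 110286834, which include the cluster, held 34% G and 30.8% T. Over the 250 bases before the start site of all 32851 windows it was 26.7% G and 23.3% T. Neither stretch held the U-tract TTTTT or the GU repeat GTGTG, on either strand as printed or in the rest of the Rbm38 cluster. These motifs cannot overlap each other. They occur on the gene's strand in 23.8% and 24.4% of all such windows, and on the other strand in 23.9% and 23.5%. These rates are per 250 bases, longer than either stretch, so they are no base rate for the stretches. The 250 bases before the start site at 110286834 held 5 overlapping matches to TTTTT outside the cluster and none to GTGTG, and their other strand held neither. A match is only a description of the letters.

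RNA of the 7 genes was enriched with Rbm38 more often than with either Puf60 isoform. The Rbm38 table called 72 of 127 clusters (56.7%, interval 48.0 to 65.0), beside 50.9% of all clusters in that table. Puf60 with exon 5 had 30 enriched clusters of 96 (31.3%, 22.9 to 41.1), beside 39.1% of all. Puf60 without exon 5 had 25 of 118 (21.2%, 14.8 to 29.4), beside 36.1% of all. The share thus lay below the whole table's for both isoforms, with the table's share inside the interval for the isoform with exon 5 and outside it for the isoform without. For Rbm38 it lay above the table's share, which was inside the interval. The median log2 fold of all listed clusters in these genes was 0.22, -0.18 and 1.30 in the authors' deposited tables of Puf60 with exon 5, Puf60 without exon 5 and Rbm38, against 0.24, 0.11 and 1.04 over each whole table. Enriched clusters alone had medians of 2.48, 2.36 and 2.47 here, against 2.89, 2.80 and 2.33 over all enriched clusters of the authors' deposited tables. Enriched clusters were found in 6, 6 and 7 of the 7 genes. How many clusters a gene has depends on its length and on how much of its RNA the cells hold, so numbers of clusters say nothing of binding per transcript.

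**Figure D1:**
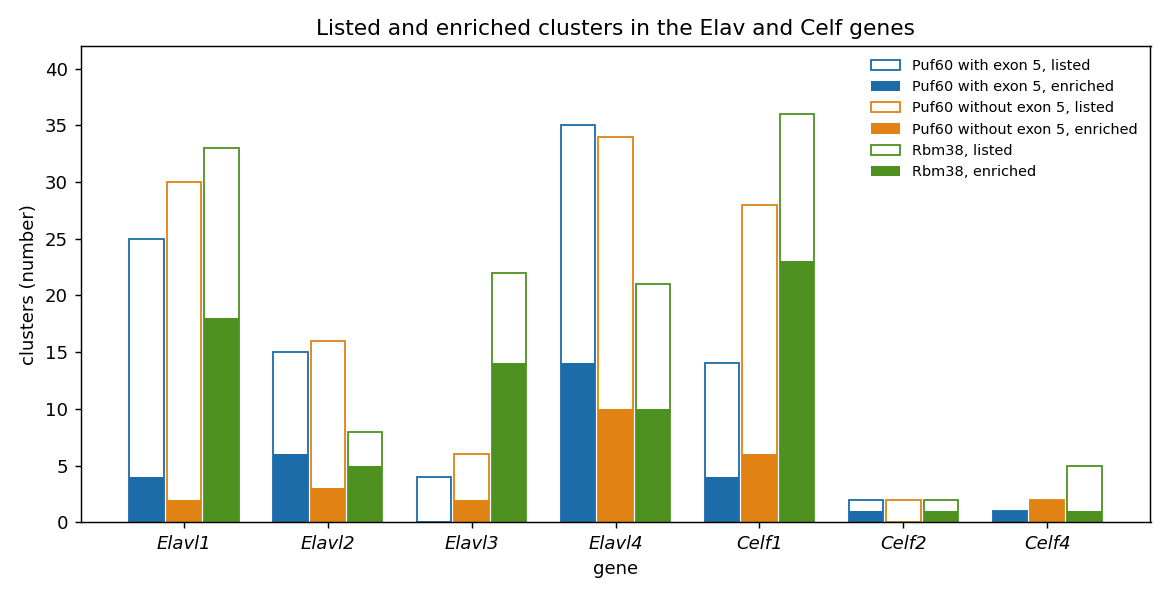
Number of clusters in each gene (vertical axis) by gene (horizontal axis), with open bars for listed clusters and filled bars for those enriched over input, for Puf60 with exon 5 (blue), Puf60 without exon 5 (orange) and Rbm38 (green). The filled part is the larger share of the Rbm38 bar in Elavl1 (18 of 33), Elavl2 (5 of 8), Elavl3 (14 of 22) and Celf1 (23 of 36).

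Elavl1 (gene 15568, chromosome 8, 4284781 to 4325140, minus strand) encodes HuR, the Elav protein made in nearly all tissues, which stabilises messages with AU-rich elements. It had 18 enriched clusters of 33 with Rbm38, 4 of 25 with Puf60 with exon 5 and 2 of 30 with Puf60 without exon 5 (54.5%, 16.0% and 6.67%). Of the 18 Rbm38 clusters, 17 lay within 5000 nt of the annotated 3′ end. The strongest was at 4289336 to 4289585, 4679 nt from that end, with a log2 fold of 3.33 (adjusted p 1.72e-173) in the authors' deposited Rbm38 table. Next came 4285236 to 4285285, 479 nt from the end, also at 3.33 (adjusted p 7.08e-36) in the authors' deposited Rbm38 table. That place was enriched with Puf60 with exon 5 too, with 1.18 as the authors' deposited table gives it.

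The Puf60 isoforms had their strongest Elavl1 cluster elsewhere, in the interior of the gene. It lay 17079 and 17054 nt from the 3′ end, at 4301836 to 4301885 with exon 5 (log2 fold 2.44, adjusted p 8.27e-13) and at 4301786 to 4301885 without it (2.20, adjusted p 8.17e-23) in the authors' deposited tables. Rbm38 was enriched there as well, at 0.72, the lowest of its 18 values in the authors' deposited table. The other enriched cluster of Puf60 without exon 5, at 4295436 to 4295485, stood at 0.94 on the log2 scale in the authors' deposited table and has no counterpart in the table with exon 5.

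Elavl2 (gene 15569, chromosome 4, 91211533 to 91400108, minus strand) encodes HuB, a neuronal Elav protein. It had 5 enriched clusters of 8 with Rbm38, 6 of 15 with Puf60 with exon 5 and 3 of 16 with Puf60 without exon 5 (62.5%, 40% and 18.8%). No table listed a cluster in the 39253 nt at the annotated 3′ end of its body, and the enriched Rbm38 clusters lay just upstream of that stretch, 39327 to 41527 nt from the end. The strongest were at 91250786 to 91250935, with a log2 fold of 4.71 (adjusted p 1.14e-145), and at 91251236 to 91251335, with 4.26, in the authors' deposited Rbm38 table. At the first place the authors' deposited tables gave 1.02 for Puf60 with exon 5, which was enriched, and 0.24 without exon 5, which was not. At the second place the authors' deposited Puf60 tables gave 0.66 and -0.63, neither enriched. The first of these had a deposited p of 0.0221 and was not called because of its adjusted p.

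The isoforms shared their leading Elavl2 clusters. The first was at 91261036 to 91261085 with exon 5 (log2 fold 4.01, adjusted p 7.24e-38) and at 91260986 to 91261085 without it (3.60) in the authors' deposited tables. The second, at 91252786 to 91252885, had 3.29 with exon 5 and 3.43 (adjusted p 1.29e-77) without it in the authors' deposited tables. Puf60 with exon 5 also had enriched clusters far upstream, at 91338936 to 91338985 (2.71) and 91369636 to 91369685 (1.36) in the authors' deposited table, where the other isoform's table lists none.

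Elavl3 (gene 15571, chromosome 9, 22015005 to 22052146, minus strand) encodes HuC, a neuronal Elav protein. The tables listed 22 clusters for Rbm38, 14 of them enriched, 4 with none enriched for Puf60 with exon 5 and 6 with 2 enriched for Puf60 without exon 5. The enriched Rbm38 clusters lay in 2 stretches, 9 within 5000 nt of the 3′ end and 5 at 25805 to 33605 nt from it. The highest was at 22015836 to 22016085, 955 nt from the end, with a log2 fold of 3.86 (adjusted p 4.87e-181) in the authors' deposited Rbm38 table. It was followed by 22018186 to 22018235 at 3.71, where Puf60 with exon 5 had 0.98, in the authors' deposited tables. The deposited p of that Puf60 cluster was 0.000257, and it was not called because of its adjusted p, whose criterion is not given. Of the Elavl3 clusters, 2 of 4 with exon 5, 0 of 6 without it and 4 of 22 for Rbm38 were uncalled in this way. The distant enriched Rbm38 clusters ranged from 1.96 to 3.18 in the authors' deposited Rbm38 table. Puf60 without exon 5 had its enriched clusters at 22038286 to 22038335 (log2 fold 3.68, adjusted p 6.51e-30) and 22022436 to 22022485 (1.37) in the authors' deposited table, 23305 and 7455 nt from the 3′ end. Neither has a cluster in the table with exon 5.

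Elavl4 (gene 15572, chromosome 4, 110203737 to 110351939, minus strand) encodes HuD, an Elav protein that acts in neuronal differentiation. Enriched clusters numbered 14 of 35 for Puf60 with exon 5, 10 of 34 without it and 10 of 21 for Rbm38 (40%, 29.4% and 47.6%). The 10 enriched Rbm38 clusters all lay within 2573 nt of the 3′ end, at 1.49 to 4.42 on the log2 scale in the authors' deposited table. Of the enriched Puf60 clusters, 10 of 14 with exon 5 and 6 of 10 without it lay more than 5000 nt from that end. The strongest Rbm38 cluster, at 110203736 to 110203885, reached 4.42 (adjusted p 3.04e-128) at 73 nt from the end, and Puf60 had 0.93 with exon 5 and 0.80 without it there, all from the authors' deposited tables. The next, at 110204586 to 110205085, had 3.97 with an adjusted p written as 0 in the authors' deposited Rbm38 table.

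The isoforms met again in the interior of Elavl4. At 110226636 to 110226685 the log2 fold was 3.96 with exon 5, and at 110226636 to 110226735 it was 4.49 (adjusted p 9.59e-83) without it, in the authors' deposited tables. The highest value with exon 5, 4.17 (adjusted p 1.43e-42) at 110285186 to 110285235, has no counterpart in the other authors' deposited Puf60 table. In turn, the cluster of Puf60 without exon 5 at 110206636 to 110206735 (3.97, adjusted p 5.07e-71) has none with exon 5, and Rbm38 had -0.53 within it, in the authors' deposited tables. That cluster lay 2948 nt from the 3′ end, close to the Rbm38 clusters.

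**Figure D2:**
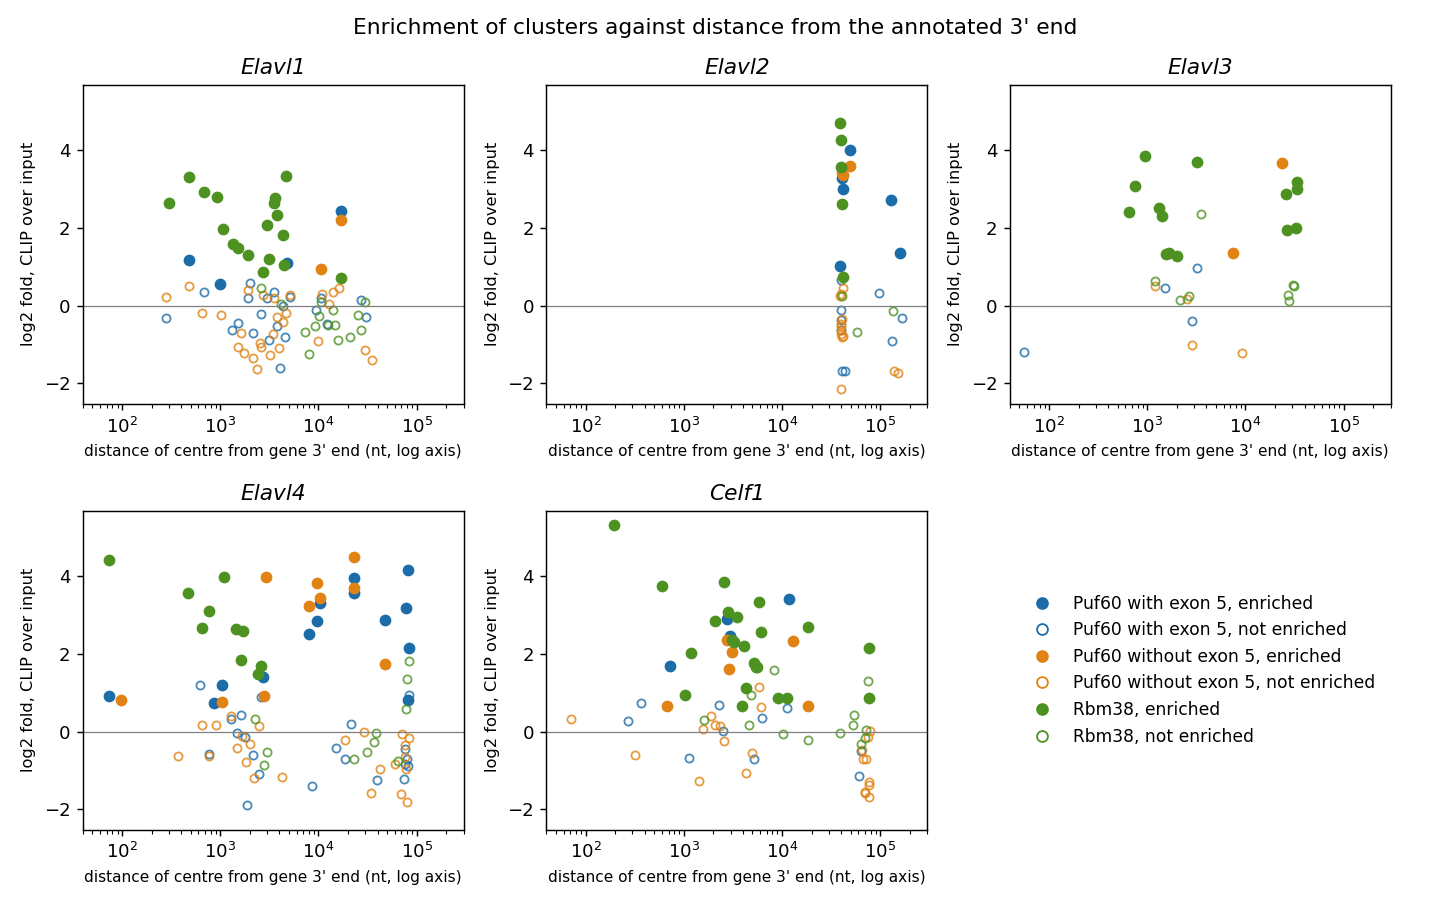
Log2 fold of CLIP over input in the authors' deposited tables (vertical axis) against the distance of a cluster's centre from the annotated 3′ end of its gene (horizontal log axis, nt), 1 panel for each gene with over 5 clusters in all and at least 4 in every table, filled where enriched. Rbm38 (green) fills the region within 5000 nt of the 3′ end in Elavl1 and Elavl4 (17 of 18 and 10 of 10 enriched clusters), whereas Puf60 (blue with exon 5, orange without) has its highest Elavl4 values farther away.

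Celf1 (gene 13046, chromosome 2, 90940259 to 91019497, plus strand) encodes a protein that binds GU-rich elements and promotes decay of the messages that hold them. Of its clusters, 23 of 36 were enriched with Rbm38, 4 of 14 with Puf60 with exon 5 and 6 of 28 without it (63.9%, 28.6% and 21.4%). The last part of the gene held the highest value of the 7 genes in any table, a Rbm38 cluster at 91019101 to 91019500 with a log2 fold of 5.31 and an adjusted p written as 0 in the authors' deposited table. Inside that cluster the authors' deposited tables gave 0.74 and 0.26 for Puf60 with exon 5 and -0.59 and 0.31 without it, none enriched. The cluster at 0.74 had a deposited p of 0.00357 and was not called because of its adjusted p. The second Rbm38 cluster, at 91016851 to 91017000, had 3.85 (adjusted p 1.50e-193), against 0.00 and -0.25 for the Puf60 isoforms in the authors' deposited tables. Rbm38 clusters were not limited to the 3′ end, and 10 of the 23 lay more than 5000 nt away, up to 76421 nt.

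Both Puf60 isoforms shared an enriched Celf1 cluster at a place where Rbm38 was enriched too, inside its cluster at 91016551 to 91016800 (3.07 in the authors' deposited table). It lay at 91016701 to 91016750 with exon 5 (log2 fold 2.91) and at 91016701 to 91016800 without it (2.36, adjusted p 3.58e-37) in the authors' deposited tables, 2771 and 2746 nt from the 3′ end. The highest value with exon 5, 3.42 (adjusted p 5.96e-50) at 91007601 to 91007700, has no cluster in the other authors' deposited Puf60 table. Likewise 91006601 to 91006650, at 2.32 without exon 5, has none in the authors' deposited table with exon 5.

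Celf2 (gene 14007, chromosome 2, 6539694 to 7396341, minus strand), a splicing regulator of brain and muscle, had clusters at the same 2 places in every table. At 6543436 to 6543485, 3766 nt from the 3′ end, the log2 fold was 3.39 (adjusted p 2.86e-55) with Rbm38, 0.90 (adjusted p 0.000313) with Puf60 with exon 5 and 1.30 without exon 5, from the authors' deposited tables. The last was not called, since its adjusted p is given as 1 beside a p of 2.23e-07 in the authors' deposited table. At 7076386 to 7076435 the values were -2.71, -1.92 and -2.05 in the same order, lower in CLIP than in input in all of the authors' deposited tables.

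Celf4 (gene 108013, chromosome 18, 25477620 to 25754520), a Celf protein of neurons, is absent from the promoter table that gave the strand of the other genes, and was taken as minus from 8 of the 10 clusters inside it. Puf60 had an enriched cluster at 25746786 to 25746835 with either isoform, 3.46 (adjusted p 6.28e-29) with exon 5 and 3.59 (adjusted p 5.47e-28) without it in the authors' deposited tables. Puf60 without exon 5 had another at 25676236 to 25676335, at 4.74 (adjusted p 4.32e-65), the highest Puf60 value among the 7 genes in the authors' deposited tables. Rbm38 had 1 enriched cluster of 5, at 25753736 to 25753835 near the 5′ end of the gene, with 3.49 (adjusted p 3.02e-45) in the authors' deposited table.

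The folds of the Puf60 isoforms were set side by side at clusters that both Puf60 tables hold. Induction lasted 48 h in the CLIP libraries with exon 5, and 24 h in those without it and in both inputs. A difference can therefore not be assigned to exon 5. Of 50 matched clusters in these genes, 16 were enriched in both tables, 5 only with exon 5, none only without it and 29 in neither. Among the 21 enriched in at least 1 table, these were 76.2% in both, 23.8% only with exon 5 and 0% only without it. Over the whole tables the shares were 81.9%, 10.3% and 7.89% of 10778. Among the 5, the clusters starting at 6543436 in Celf2 and 4285236 in Elavl1 also had a p under 0.05 without exon 5. They were not called there because of the authors' adjusted p, whose criterion is not given. In Celf2 the log2 fold was higher without exon 5, at 1.30 against 0.90 in the authors' deposited tables. How many such pairs the whole-table shares hold is not given here. Over all 50, the log2 fold with exon 5 minus that without it had a median of 0.32 (SD 0.61 over clusters, range -1.24 to 1.34) in the authors' deposited tables, and it was above 0 at 31 and below 0 at 19. Over the 16 enriched in both tables the median was 0.01, with 8 above 0 and 8 below, from the authors' deposited tables. Over the 21 enriched in at least 1 table it was 0.24 (range -0.98 to 1.14) in the authors' deposited tables, but 5 of these were included only through their enrichment with exon 5 and none only through that without it, which by itself raises the difference. Over all 20187 matched clusters of the authors' deposited tables the median was 0.10 (SD 0.71), and over the 8822 enriched in both it was 0.04. The difference was below 0 at 43.3% of the 20187, beside 38% of the 50 in these genes. Across the 50 clusters the log2 folds of the authors' deposited Puf60 tables had a Pearson r of 0.928, against 0.943 over all 20187. These points share genes, and each table shares 1 input.

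By gene, the difference over all matched clusters was above 0 at 9 of 14 in Elavl1 (-0.63 to 0.79), 4 of 6 in Elavl2 (-0.36 to 1.30) and 10 of 20 in Elavl4 (-1.24 to 1.14) in the authors' deposited tables. It was above 0 at 6 of 6 in Celf1, by 0.26 to 1.34, of which 3 were enriched in both of the authors' deposited tables. Over the whole tables it was above 0 at 11379 of 20187 matched clusters, and no count by gene was tested against that. Elavl3 had 1 matched cluster, at 0.63, Celf4 1, at -0.12, and Celf2 2, at -0.40 and 0.13, in the authors' deposited tables. Among the 21 clusters enriched in at least 1 table, both extremes lay in Elavl4. They were 2.88 with exon 5 against 1.74 without it at the cluster starting at 110251436, and 2.84 against 3.82 at the one starting at 110213286, in the authors' deposited tables.

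Enriched clusters that the other Puf60 table does not list numbered 8 of 30 with exon 5 and 9 of 25 without it. Those with exon 5 were 5 in Elavl4, 2 in Elavl2 and 1 in Celf1. Those without exon 5 were 3 in Celf1, 2 each in Elavl3 and Elavl4, and 1 each in Elavl1 and Celf4. Of the enriched clusters, 16 of 30 with exon 5 (53.3%) overlapped an enriched cluster without it, beside 64.2% over the whole table, and 16 of 25 (64.0%) the other way, beside 63.7%. A cluster missing from a table has no value there, so the size of these differences is unknown. The share of enriched clusters not listed for the other isoform is not given here for the whole tables. The counts of such clusters by gene therefore have no base rate and are not read as a trait of these genes.

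**Figure D3:**
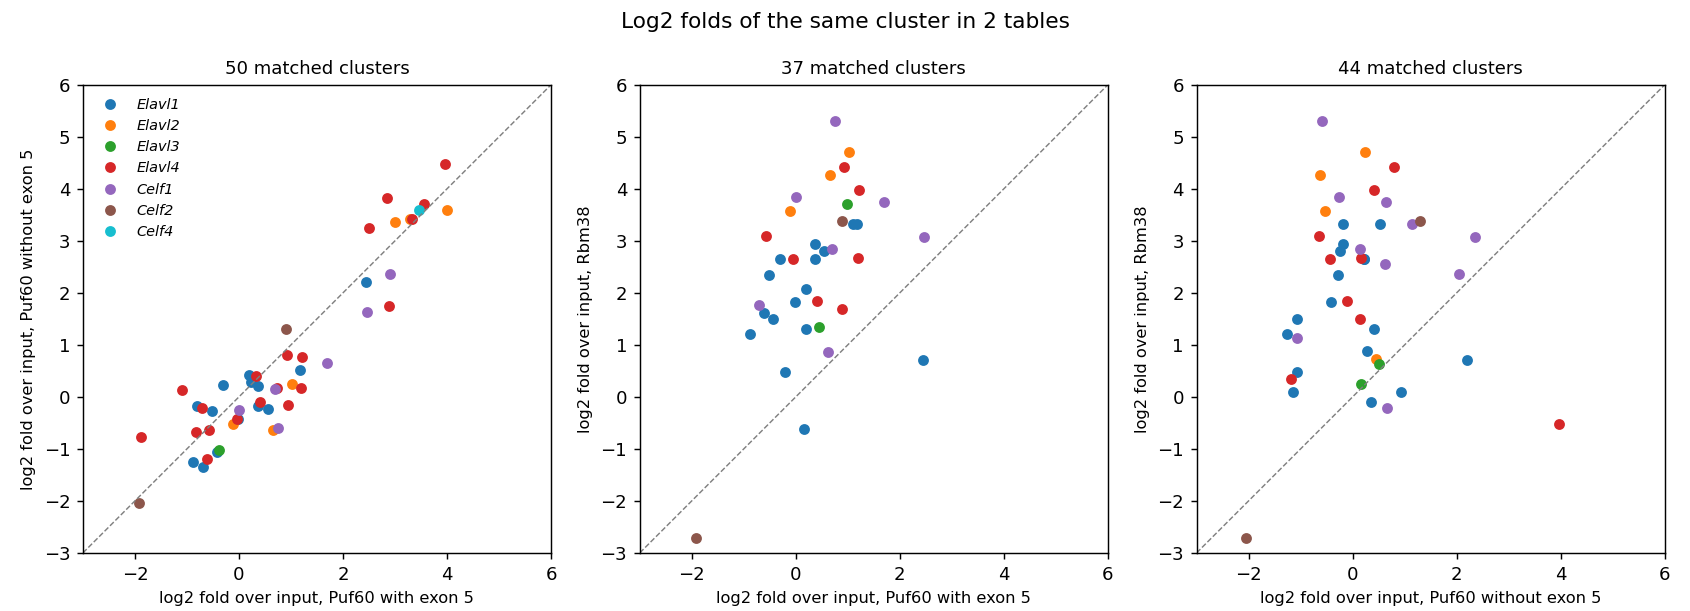
Log2 folds over input, in the authors' deposited tables, of matched clusters for the pair of proteins named on the axes, 1 point per match coloured by gene, with a dashed line of equality. Matched clusters are each other's largest overlap, of at least 1 nt, and can differ in extent. The 50 clusters of the Puf60 isoforms lie along the line, whereas most of the 37 and 44 clusters matched with Rbm38 lie above it.

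At places listed for both Rbm38 and Puf60, Rbm38 usually had the higher fold. Over all matched clusters of these genes, enriched or not, it was higher at 34 of 37 with Puf60 with exon 5 (91.9%) and at 38 of 44 with Puf60 without it (86.4%), beside 61.9% and 66.1% over the whole tables. The medians of Puf60 minus Rbm38 were -2.22 for either isoform in the authors' deposited tables, beside -0.64 and -0.92 over all matched clusters there. Of the clusters enriched in either table, Rbm38 alone was enriched at 24 of 34 with exon 5 and 29 of 37 without it (70.6% and 78.4%), beside 49.6% and 55.9% over the whole tables. These places were included through Rbm38's own enrichment, so the difference over them is largely set by that choice and is not given. Puf60 alone was enriched at 0 of 34 and 3 of 37, beside 23.8% and 22.3% over the whole tables, and both proteins at 10 and 5. Where both were enriched, Rbm38 was higher at 9 of 10 and 4 of 5, with medians of -2.24 and -0.72 in the authors' deposited tables, beside 0.18 and 0.09 over all such clusters there. Among clusters enriched in either table, the exception with exon 5 was the interior Elavl1 cluster at 2.44 against 0.72 in the authors' deposited tables. The widest exception without exon 5 was the Elavl4 cluster at 3.97 against -0.53 in the authors' deposited tables. The Pearson r over matched clusters was 0.473 with exon 5 (37 clusters) and 0.0622 without it (44 clusters), beside 0.0814 and -0.00577 over all matched clusters, with genes and inputs shared between the points.

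Enriched clusters of Rbm38 seldom overlapped enriched Puf60 clusters, in these genes as over the whole table. These overlaps were 10 of 72 (13.9%) with exon 5 and 6 of 72 (8.33%) without it, beside 12.4% and 11.5% over the whole table. Both whole-table shares lay inside the intervals of the shares in these genes. Another 24 and 30 overlapped a Puf60 cluster that was listed and not enriched. The share of such overlaps over the whole table is not given here. In the other direction, 12 of 30 enriched clusters with exon 5 (40%) and 7 of 25 without it (28.0%) overlapped an enriched Rbm38 cluster, beside 22.2% and 20.0% over the whole tables. With an overlap of at least 50% of both clusters the shares in these genes were 10.0% and 12%. Most of the shared places in these genes were therefore clusters of unequal extent. The whole-table shares under that stricter rule are not given here. Whether the shares in these genes stay above them, and whether unequal extent is particular to these genes, was therefore not tested.

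Enriched Rbm38 clusters lay near the 3′ end of these genes more often than enriched Puf60 clusters. Of the 72 enriched Rbm38 clusters, 27 had their centre within 2000 nt of that annotated end (37.5%, interval 27.2 to 49.0), as had 3 of the 55 that were not enriched (5.45%, 1.87 to 14.9). For Puf60 with exon 5 it was 6 of 30 enriched (20.0%, 9.51 to 37.3) and 17 of 66 not enriched (25.8%). For Puf60 without exon 5 it was 3 of 25 enriched (12%, 4.17 to 30) and 23 of 93 not enriched (24.7%). Over all protein-coding genes with a known strand the enriched shares were 43.9% for Rbm38, 15.1% with exon 5 and 15.2% without it, and the others 10.2%, 29.9% and 34.9%. In the 7 genes as in protein-coding genes at large, the Rbm38 share was the highest among enriched clusters and the lowest among the others. Their enriched clusters had a median distance of 3113 nt for Rbm38, 14463 nt with exon 5 and 10679 nt without it. The shares moved with the limit: within 1000 nt they were 18.1% for Rbm38, 13.3% with exon 5 and 8% without it, and within 5000 nt 69.4%, 36.7% and 32%. Elavl2 added no cluster within any of these distances.

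**Figure D4:**
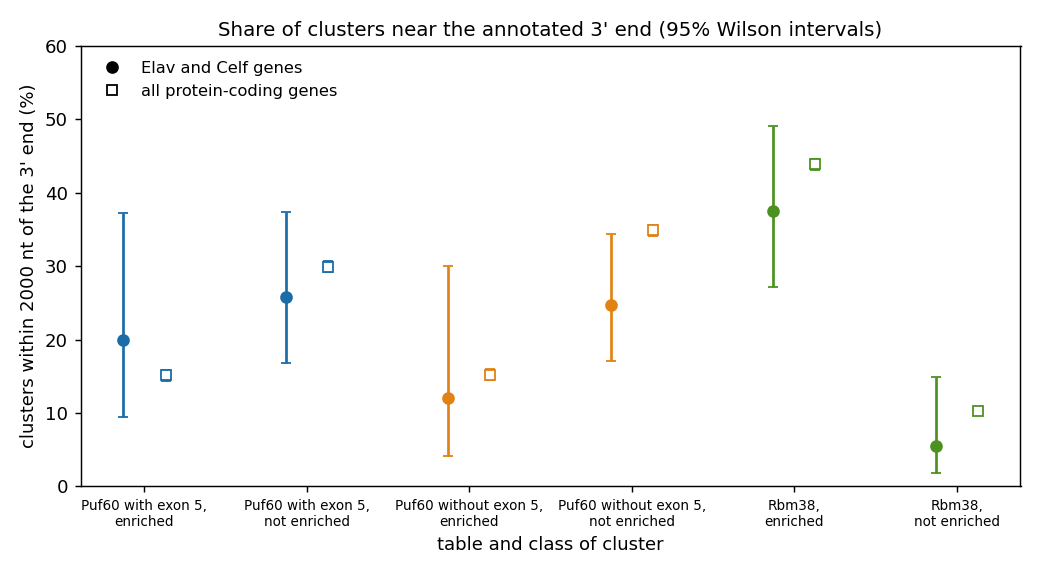
Share of clusters whose centre lies within 2000 nt of the annotated 3′ end (vertical axis, percent) by table and class of cluster (horizontal axis), for the 7 Elav and Celf genes (filled circles) and all protein-coding genes (open squares), with 95% Wilson intervals. Enriched Rbm38 clusters stand at 37.5% in these genes against 5.45% for those not enriched, and enriched Puf60 clusters at 20.0% and 12%.

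For comparison, 16 other genes for RNA-binding proteins of related classes were counted the same way, and their pooled Puf60 shares ran the other way. This did not hold for every group, and the Mbnl genes stood at 28.9% with exon 5 and 33.3% without it. Pooled, the 16 genes had 120 of 195 clusters enriched with Puf60 with exon 5 (61.5%), 125 of 228 without it (54.8%) and 125 of 241 with Rbm38 (51.9%). Beside the 31.3% and 21.2% of the Elav and Celf genes above, the whole tables stood between, at 39.1% and 36.1%. The remaining Celf genes Celf3, Celf5 and Celf6 had 15 of 17 clusters enriched with exon 5, 17 of 21 without it and 13 of 28 with Rbm38, whereas Celf1, Celf2 and Celf4 together had 6 of 17, 8 of 32 and 25 of 43. Celf3, a neuronal Celf gene, alone had 12 of 13, 13 of 17 and 11 of 21, reaching 4.28, 4.69 and 2.69 on the log2 scale in the authors' deposited tables. Celf5 had 3 of 3, 3 of 3 and 2 of 6, reaching 4.06, 3.92 and 3.10, and Celf6 had 1 enriched cluster, without exon 5, at 4.43 in the authors' deposited tables.

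Among binders of AU-rich and U-rich RNA, Zfp36l2, which promotes decay of AU-rich messages, had 7 of 7 enriched with Rbm38 (0.85 to 3.73 on the log2 scale) and 0 of 2 and 0 of 6 with Puf60 in the authors' deposited tables. Tia1, a splicing regulator that binds U-rich RNA, was the reverse, with 9 of 12 and 6 of 10 for the Puf60 isoforms, reaching 4.30 and 4.46, and 0 of 10 with Rbm38 in the authors' deposited tables. Its relative Tial1 had 16 of 19, 17 of 22 and 14 of 26, Khsrp 6 of 10, 8 of 10 and 8 of 14, and Hnrnpd 8 of 15, 12 of 20 and 10 of 22. Their highest log2 folds were 4.55, 4.08 and 3.57 for Tial1, 3.92, 4.91 and 2.81 for Khsrp, and 2.90, 3.26 and 3.88 for Hnrnpd in the authors' deposited tables. Zfp36 and Zfp36l1 had no listed cluster.

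Among pyrimidine-tract and U-tract binders, Ptbp2, the neuronal polypyrimidine tract-binding protein, had 35 of 48 clusters enriched with exon 5, 34 of 61 without it and 44 of 74 with Rbm38. Ptbp1 had 12 of 20, 9 of 15 and 7 of 20, and Hnrnpc, which binds U tracts in introns, had 8 of 14, 9 of 24 and 7 of 13. The highest values were 4.85, 5.37 and 3.82 for Ptbp2, 3.56, 3.62 and 3.37 for Ptbp1, and 5.09, 5.51 and 4.36 for Hnrnpc in the authors' deposited tables. The Mbnl splicing regulators had lower Puf60 shares, 11 of 38 and 13 of 39, and 15 of 27 with Rbm38. Mbnl1 reached 5.09, 5.49 and 4.37 and Mbnl2 3.40, 2.79 and 3.34, and Mbnl3 had 1 enriched cluster without exon 5 (1.93) and 1 with Rbm38 (0.60), in the authors' deposited tables.

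Elavl1, Elavl4 and Celf1 had at least 10 listed clusters in every table, so the protein-coding genes nearest to them in the shares enriched could be sought among 398 such genes. Likeness was the largest of the 3 differences in percent enriched, over the 3 tables. Elavl1 was nearest to Map1b, within 5.73 percentage points, and to Ankrd11, within 6.12. Elavl4 was nearest to Ube2k (2.14) and Nfat5 (4.91), and Celf1 to Aff4 (2.20) and Irf2bp2 (3.57), in percentage points.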

How the data were processed

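The authors deposited, for each protein, a table of clusters with position, a log2 fold change, and a p-value before and after adjustment, per the file headers. TopHat, edgeR, NCBIM37 and mm10 stand in the submitters' processing notes, without version or role. For cluster calling and for how replicates and input were combined, the method is not given in the sources used here. There were 0 further value columns. The planned count tests were not made, since no table holds values per library.

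Cluster starts fall on a 50 nt grid, offset by 0 (read as plus) or 35 (read as minus), so strand is inferred. Coordinates are 1-based. Overlap needed 1 nt on the same strand, and matched clusters are each other's largest overlap. All steps used Python 3.11.15, pandas 2.3.3, numpy 2.4.6, scipy 1.17.1 and matplotlib 3.10.9, and the cluster assignment and matching were tested on simulated tables.

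All 7 genes were named. The text gives the 2 enriched clusters of highest log2 fold per gene and table, the widest isoform differences, and the other 16 genes as counts, with their highest values. The members and lists were chosen with earlier results of these data known. The alternatives were other thresholds, adjustment, strand and overlap rules and distances.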

Additional observations from a re-analysis of the deposited data

Results flagged for a closer look

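The strand rule left 7 clusters inside these gene bodies unused because they lay on the opposite strand, and 6 of them were enriched, all with Puf60. In Elavl3 a plus-strand cluster at 22018401 to 22018450 had log2 folds of 6.22 with exon 5 and 6.23 without it in the authors' deposited tables, above any value on the gene's own strand, while Rbm38 had -0.11 there and was not enriched. In Celf2 the cluster at 7078901 to 7078950 had 3.54 with exon 5 and 2.96 without it in the authors' deposited tables, near the place where the gene's own strand was lower in CLIP than in input. In Celf4 the cluster at 25753901 to 25753950 had 5.05 and 4.63 in the authors' deposited tables, and the enriched Rbm38 cluster of the gene's own strand ends at 25753835, just before it on the map. Each was found in both Puf60 tables at the same coordinates. No other annotated gene body covers any of these places.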

How the results depend on the processing

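Of 48 values recomputed under other settings, 39 stayed within a bound around the value reported and 9 did not. Counts and shares have no sign and could not turn direction, and the isoform median, which has one, stayed above 0. The bound was 1.5 times for counts, the 95% interval for shares and 1 SD over clusters for the isoform median. These bounds are wide, and the 39 include shares that moved by over 1.5 times, such as 8.33% to 4.17% for Rbm38 in Puf60 without exon 5 under the 50% overlap. The number of enriched clusters ran from 25 to 36 with exon 5, 19 to 29 without it and 64 to 81 for Rbm38 over all settings tried. Counting any listed cluster of the other table as shared, the overlap rose to 73.3% for Puf60 with exon 5 in the table without it, to 47.2% for Rbm38 in Puf60 with exon 5 and to 50% for Rbm38 in Puf60 without it. An overlap of at least 50% of both clusters lowered the share to 10.0% for Puf60 with exon 5 in Rbm38, 12% for Puf60 without it in Rbm38 and 4.17% for Rbm38 in Puf60 with exon 5. Within 5000 nt of the 3′ end lay 32.0% of enriched clusters without exon 5 and 69.4% for Rbm38, and within 1000 nt 18.1% for Rbm38. These follow from the wider or narrower rule itself. The median isoform difference, 0.24 over clusters enriched in at least 1 of the authors' deposited tables, was 0.19 with the stricter overlap, 0.01 over those enriched in both and 0.32 over all matched clusters. The last, and leaving out Elavl2, were chosen after seeing the data. Without Elavl2, the shares within 2000 nt were 25%, 13.6% and 40.3%. No paired analysis was possible because the tables hold no values per library, and for the same reason no replicate could be left out. Read depth per cluster is unknown, and whether clusters that are not listed or not enriched had too few reads was not tested.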

Other observations

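Of the clusters in these genes, 26 had a p-value under 0.05 beside an adjusted p of 1 in the authors' deposited tables, 9 with exon 5, 6 without it and 11 for Rbm38, by a criterion that the sources used here do not give. They were not counted as enriched. The genes listed 96, 118 and 127 clusters in these tables. Over the whole tables such clusters numbered 1806 of 36227 with exon 5, 1684 of 39454 without it and 5767 of 49260 for Rbm38. In these genes, those with the lowest p in the authors' deposited Rbm38 table were at 22018486 to 22018535 in Elavl3 (log2 fold 2.36, p 8.71e-18), at 110286836 to 110286885 in Elavl4 (1.81, p 4.42e-13) and at 91011201 to 91011250 in Celf1 (1.58, p 1.78e-09). With a Benjamini-Hochberg adjustment of the deposited p-value over each whole table, 36, 29 and 81 clusters of these genes were enriched. The shares of all clusters enriched under that adjustment are not given here.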
